A study of Mus musculus with 6 samples.

Results

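AP-1 regions were defined here as open chromatin regions away from promoters that hold an exact copy of the 7-bp AP-1 site, TGACTCA or TGAGTCA, close to the point of strongest signal. The peak lists of 6 ATAC-seq libraries were merged into 194496 regions. Of these, 171929 (88.4%) had their strongest summit more than 1 kb from every protein-coding transcription start site and are called distal. A site lay within 100 bp of the strongest summit in 32025 distal regions, which is 18.6% (95% Clopper-Pearson interval 18.4 to 18.8%). The other 139904 distal regions served as the comparison. In promoter regions the share was 5.07%. All intervals of this kind cover counting error only.

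ATAC-seq marks open chromatin by the cuts of the Tn5 transposase. The libraries were made from adipocyte cultures of male C57BL/6J mice aged 3 to 4 weeks, after 7 days of differentiation, with 2 libraries in each of 3 conditions. For the beige condition, stromal vascular cells of inguinal fat were given 1 µM rosiglitazone, 1 nM T3, 5 µM dexamethasone, 0.5 mM isobutyl methylxanthine and insulin, which the labels put at 5 µg/ml. For the white condition, cells of the same depot were given neither rosiglitazone nor T3 and less dexamethasone (1 µM), with insulin and isobutyl methylxanthine as above. For the brown condition, cells were taken from brown fat and given every addition of the beige medium. The brown cultures are described in the labels alone and not in the study's methods, and whether they were handled together with the beige and white ones is not stated in the sources used here. All mice were wild type. The cultures are mixed primary cells, so a change in the share of one cell type and a change in openness per cell cannot be told apart.

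AP-1 is a family of dimeric transcription factors made of Jun, Fos, Fra, Batf and Atf proteins, which bind a near-palindromic site through a basic leucine zipper. The genes for several subunits are induced within minutes by growth factors, cytokines and cAMP, and AP-1 is known for opening enhancers together with factors specific to the cell type. In fibroblasts and preadipocytes AP-1 sites are among the common motifs of distal open chromatin, and AP-1 is active early after the adipogenic cocktail is added.

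The open promoters of marker genes agreed in part with the labels. A promoter peak was called for 9 or 10 of 10 adipocyte markers and for 8 or 9 of 10 progenitor and fibroblast markers in each library. It was called for 3 or 4 of 10 macrophage markers and for 5 or 6 of 10 endothelial markers. Csf1r, Itgam, C1qa, Mrc1 and Fcgr1 of the macrophage list and Cdh5, Emcn and Vwf of the endothelial list had none in any library. The part that such cells have in the results below was not tested. The lists held between 109143 and 127490 peaks. White 1 and white 2, and brown 1 and brown 2, stood further apart from each other than beige 1 and beige 2 in most AP-1 measures, so results that rest on a pattern of calls are also given by library.

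Several windows show what the members look like. Each is the 201 bp around the strongest summit, read 5′ to 3′ on the plus strand of mm10, with every AP-1 site in capitals. The first pair are regions called in all 6 libraries, among the strongest of every list.
Rabgap1l region, chr1:160531512-160531712: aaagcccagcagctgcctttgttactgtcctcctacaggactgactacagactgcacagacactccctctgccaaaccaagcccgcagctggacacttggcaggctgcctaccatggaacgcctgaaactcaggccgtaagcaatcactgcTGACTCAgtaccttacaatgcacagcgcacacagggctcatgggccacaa
Cited2 region, chr10:16589502-16589702: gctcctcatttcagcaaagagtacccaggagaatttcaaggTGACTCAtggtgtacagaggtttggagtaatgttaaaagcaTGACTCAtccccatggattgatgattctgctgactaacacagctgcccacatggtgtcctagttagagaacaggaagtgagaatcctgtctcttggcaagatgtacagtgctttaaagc

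The Rabgap1l region lay in an intron of that gene, which encodes a Rab GTPase-activating protein, 180041 bp from its nearest start site. Its fold enrichment ranked from percentile 99.90 to 99.98 of the distal peaks in all 6 lists. The Cited2 region was intergenic, 1133616 bp from the start of Cited2, a co-regulator of CBP and p300, and held 2 sites, at -56 and -15 bp from the summit. Its −log10 q was 91.8 and 118 in beige, 109 and 65.2 in white and 133 and 100.7 in brown. The 10 strongest shared regions also included a pair near Arrdc3, an arrestin-family gene, and 1 inside Xrcc4 nearest to Vcan, which encodes the matrix proteoglycan versican.

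The next windows are the strongest AP-1 regions called in both libraries of 1 condition and in no other library.
BC051665 region, chr13:60759245-60759445: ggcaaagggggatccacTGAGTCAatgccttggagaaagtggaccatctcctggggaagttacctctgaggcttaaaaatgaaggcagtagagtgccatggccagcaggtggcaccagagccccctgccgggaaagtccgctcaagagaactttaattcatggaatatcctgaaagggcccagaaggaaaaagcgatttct
Clcn5 region, chrX:7146260-7146460: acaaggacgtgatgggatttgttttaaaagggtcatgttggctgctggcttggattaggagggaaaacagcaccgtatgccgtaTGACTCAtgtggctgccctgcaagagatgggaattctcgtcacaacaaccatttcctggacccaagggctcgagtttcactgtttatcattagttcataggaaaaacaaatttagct
Cobl region, chr11:12895263-12895463: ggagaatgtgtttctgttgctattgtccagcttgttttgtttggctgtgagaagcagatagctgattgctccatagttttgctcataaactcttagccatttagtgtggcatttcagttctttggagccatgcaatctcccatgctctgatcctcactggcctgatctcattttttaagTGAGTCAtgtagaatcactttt

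The beige-only window lay in an intron of Dapk1, nearest to the start of BC051665, and had a −log10 q of 26.1 in beige 1 and 32.3 in beige 2. Its AP-1 site was at -80 bp, near the edge of the window, and a match to the CTCF consensus was at 7 bp from the summit. The white-only window near Clcn5, a chloride transporter gene, had its site at -13 bp and a −log10 q of 13.7 and 12.4. The brown-only window was 430403 bp from Cobl, an actin nucleator gene, with its site at 82 bp and a −log10 q of 28.4 in brown 1 and 16.9 in brown 2. None of the other windows printed held a CTCF match.

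The next 3 are among the strongest AP-1 regions of each pair of conditions, and the last is 1 of a pair of regions with the most sites.
Ptprq region, chr10:107662800-107663000: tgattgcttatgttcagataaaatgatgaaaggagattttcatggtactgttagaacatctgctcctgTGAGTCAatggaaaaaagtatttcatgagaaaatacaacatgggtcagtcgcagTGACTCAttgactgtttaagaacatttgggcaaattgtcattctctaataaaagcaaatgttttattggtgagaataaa
Rps29 region, chr12:68877322-68877522: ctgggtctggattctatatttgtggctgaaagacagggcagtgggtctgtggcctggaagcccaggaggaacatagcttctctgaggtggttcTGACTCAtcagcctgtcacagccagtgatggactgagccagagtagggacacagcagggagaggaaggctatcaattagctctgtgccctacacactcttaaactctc
Klf4 region, chr4:55451820-55452020: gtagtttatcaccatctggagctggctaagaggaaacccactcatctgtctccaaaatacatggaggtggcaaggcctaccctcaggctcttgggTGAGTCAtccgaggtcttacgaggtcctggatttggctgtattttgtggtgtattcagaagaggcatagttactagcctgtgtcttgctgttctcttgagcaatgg
Dera region, chr6:137843504-137843704: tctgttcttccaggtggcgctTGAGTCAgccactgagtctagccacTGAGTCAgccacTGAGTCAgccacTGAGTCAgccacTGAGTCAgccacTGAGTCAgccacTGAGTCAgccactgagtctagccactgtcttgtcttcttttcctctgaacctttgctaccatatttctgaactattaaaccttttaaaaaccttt

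The Ptprq region, in an intron of this receptor phosphatase gene, had sites at -29 and 25 bp and ranked between percentile 85.97 and 90.1 of fold enrichment in the 4 beige and brown lists. The Rps29 region was intergenic, 281764 bp from this ribosomal protein gene, with its site at -4 bp and a −log10 q of 9.52 and 15.5 in white and 17.7 and 10.6 in brown. The Klf4 region lay 80546 bp from the start of this zinc finger gene, with its site at -2 bp, and ranked from percentile 61.9 to 83.7 in the beige and white lists. The Dera window held 7 sites, 6 of them in a tandem array spaced by 12 bp, and was called in 5 libraries, all but white 2. A region nearest to Dok5 also held 7 sites but was called in beige 1 alone, with a −log10 q of 2.65. An intergenic region 301790 bp from the start of the pioneer factor gene Foxa2, the nearest gene, held 6 sites and was called in all 6 libraries. Multiple sites were rare. Of the 32025 AP-1 regions, 91.1% had 1 site, 8.36% had 2 and 185 had 3 or more.

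The AP-1 site stood out from every other sequence of its length in these regions. Every 7-base word, counted as 1 with its reverse complement, was counted in the distal windows and in 13171266 adjoining 201-bp tiles of the whole mm10 genome. TGACTCA was found in 18.6% of distal windows and in 3.12% of tiles, a ratio of 5.98, the highest of all 7-base words. It was also the word found in the most windows. The median word had a ratio of 1.16. The words that followed, such as AGGGCGC with 5.60, were rich in CG and present in few windows.

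Words that differ from the site by a single base were far less frequent than the site in relation to the genome. In the windows without an exact site, 19 such words had a median ratio of 1.52, and 10 of 19 exceeded 1.5. TGACGCA had the highest ratio at 3.58, followed by TGACTCG with 2.99 and CGACTCA with 2.39. TAACTCA was below the genome with 0.74. The comparison windows therefore still hold near-matches to AP-1, in unequal amounts.

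The bases beside the site went with its presence in a distal window. The mouse genome holds 433145 sites, of which 8.11% lay in a distal window. Each arm of the site reads TGA inward from its outer end, and the pair of bases just outside the arms was recorded, each on the strand of its own arm. With A and G outside the arms 13.8% of 41839 sites were in a distal window, and with A on both sides 12.4% of 25657 were. With T on both sides 1.59% of 21226 were, and any pair with a T stayed at or below 4.89%. Outside repeats the values were 15.2% with G on both sides, 15.1% with A and G and 1.74% with T on both sides. Of sites in soft-masked repeats 4.04% lay in a distal window, against 9.21% of sites elsewhere. Sites in promoter regions, or further from the strongest summit of a region, were not counted as in a distal window.

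Sites gathered around the summit. The 35146 sites had a median distance of 28 bp from the strongest summit, and 38.2% were within 20 bp, where an even spread over the window would give 21.03%. The shares within 20 bp were alike in the 6 libraries, from 35.6% in brown 2 to 38.6% in beige 1. Over all distal windows, TEAD consensus matches had a median of 45.5 bp and CTCF matches of 12 bp. The near-match TAACTCA had one of 52 bp in the windows without an exact site. AP-1 sites were thus nearer to the summit than TEAD matches and further from it than CTCF matches.

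**Figure D1:**
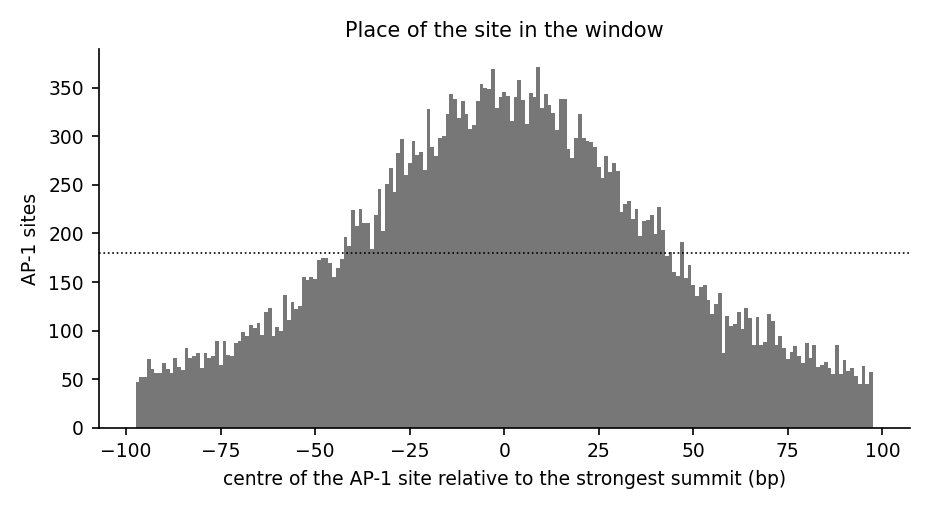
Number of AP-1 sites (vertical axis) at each distance in bp of the site's centre from the strongest summit of its distal region (horizontal axis), over 35146 sites. The dotted line is an even spread over the window, and counts are highest around the summit, with a median distance of 28 bp.

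AP-1 regions were stronger and wider peaks than the other distal regions in every library. The median fold enrichment of distal peaks with a site ranked at percentile 58.8 and 58.3 of the list in beige 1 and 2, 63.6 and 60.8 in white 1 and 2 and 61.5 and 63.3 in brown 1 and 2. Peaks without a site had medians between 45.9 and 47.5. The difference averaged 14.4 ± 2.91 percentile points (SD, n = 6) and was positive in 6 of 6 libraries, with an exact sign-flip permutation p of 0.03125, the smallest that 6 libraries allow. The median width was larger by 38 to 44 bp, again in 6 of 6 libraries (mean 39.7 ± 2.25 bp, SD, n = 6, exact permutation p = 0.03125). The libraries share most of their regions, so these 6 values are not independent in sequence.

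The share of peaks with a site rose with strength. Among the 10% of distal peaks with the lowest fold enrichment, between 11.8% and 13.8% had a site in each library. Among the 10% with the highest it was 27.7% and 25.5% in beige 1 and 2, 38.2% and 28.8% in white 1 and 2, and 41.4% and 35.5% in brown 1 and 2. Both brown lists lay above both beige lists there, while white 1 lay between the brown lists and white 2 close to beige 1.

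**Figure D2:**
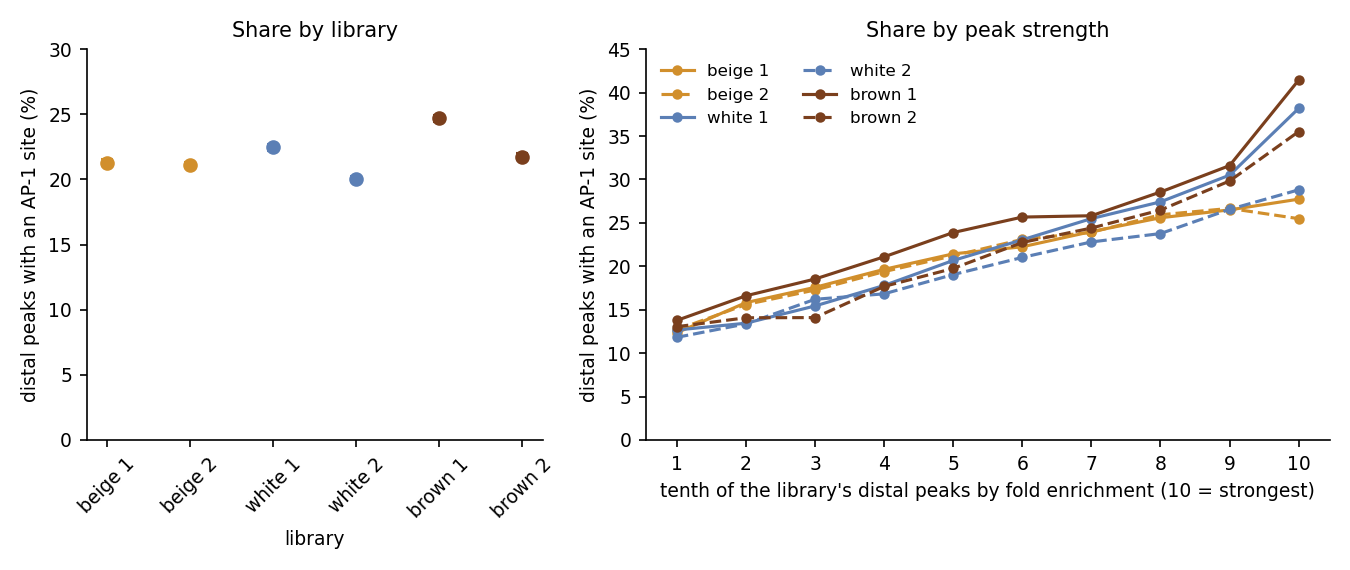
Left, percentage of each library's distal peaks with an AP-1 site (points, with 95% Clopper-Pearson intervals that are smaller than the points). Right, the same percentage in 10 equal bins of each library's distal peaks by fold enrichment, from the weakest (1) to the strongest (10). Shares by library lie between 20.02% and 24.7%, and every line starts at 11.8 to 13.8% and ends higher, from 25.5% in beige 2 to 41.4% in brown 1.

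Over all distal peaks no difference between conditions passed the test. The share of distal peaks with a site was 21.3% and 21.1% in beige, 22.5% and 20.02% in white and 24.7% and 21.7% in brown. The white libraries lay on both sides of the beige ones, and both brown values were above both beige values. The means were 21.2 ± 0.11%, 21.2 ± 1.73% and 23.2 ± 2.10% (SD, n = 2 each). Brown minus beige was 2.01 percentage points, with an exact two-sided permutation p of 0.333, brown minus white 1.97 (exact p = 0.667) and white minus beige 0.04 (exact p = 1). With 2 libraries against 2 no p below 0.333 can be reached. Without brown 1 the differences from beige and from white were 0.52 and 0.48 points, and without brown 2 they were 3.49 and 3.45. Brown minus white was 3.19 without white 1 and 0.75 without white 2. White against the 4 beige and brown libraries gave -0.97 points (exact p = 0.6, smallest possible 0.0667). The p-values measure the spread between these libraries only. The study's reporting summary speaks of biological replicates for its ATAC-seq, and no source used here says so of the brown libraries in particular.

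The gain in rank of peaks with a site over peaks without was 11.4 and 10.8 percentile points in beige, 17.8 and 13.6 in white and 15.4 and 17.1 in brown. The beige values did not overlap with those of white or brown, and each difference (4.62 for white minus beige, 5.17 for brown minus beige) had the smallest exact permutation p that the design allows, 0.333. White minus beige was 2.56 without white 1, and brown minus beige stayed between 4.31 and 6.03 without 1 library. Brown and white overlapped (0.55 points, exact p = 1).

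AP-1 regions were called in more libraries than the comparison regions. Of AP-1 regions 38.6% were called in all 6 libraries, against 22.9% of regions without a site and 25.9% of all distal regions. Conversely, 23.9% of AP-1 regions and 43.5% of the others were called in 1 library alone. Read the other way, the share with a site rose at every step, from 11.2% (10.9 to 11.4%) of regions called in 1 library to 27.8% (27.4 to 28.2%) of those called in 6. The libraries of a condition also agreed more on AP-1 regions: of regions called in either beige library, 71.4% with a site and 61.8% without were called in both. The values were 65.4% and 49.9% in white and 67.7% and 53.2% in brown.

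Strength and number of libraries move together, so the same comparison was made between regions of like strength. Among regions whose highest −log10 q lay between 10 and 20, 30.4% of AP-1 regions (29.3 to 31.5%) and 27.3% of the others (26.7 to 27.9%) were called in all 6 libraries. Between 20 and 40 it was 81.6% against 70.8%, and at 40 and over 99.02% against 96.7%. The gap at like strength was thus smaller than over all regions. The number of sites followed the same direction: 37.1% of regions with 1 site, 52.5% with 2 and 65.4% with 3 or more were called in all 6 libraries, and their median width was 295, 360 and 460 bp. These groups were not matched for strength, and their median highest −log10 q rose as well, from 11.3 to 19.7 and 31.8.

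**Figure D3:**
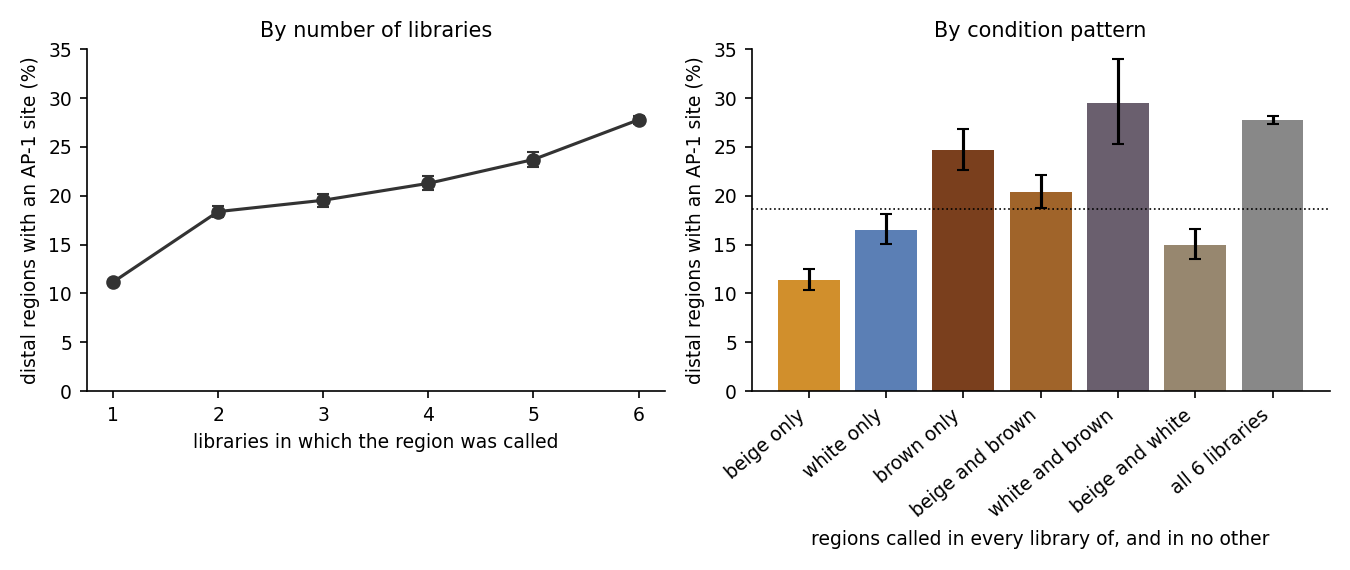
Percentage of distal regions with an AP-1 site, with 95% Clopper-Pearson intervals, by the number of libraries in which the region was called (left) and by condition pattern (right). In the right panel a region was called in every library of the named condition or conditions and in no other, and the dotted line is the 18.6% of all distal regions. The left panel rises from 11.2% to 27.8%, and on the right beige-only regions are lowest with 11.4%.

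The AP-1 content of regions limited to 1 condition was lowest in beige and highest in brown. Of the distal regions, 2.06% were called in both beige libraries and no other, 1.30% in both white libraries only and 0.954% in both brown libraries only. A site was present in 11.4% of the 3543 beige-only regions (10.3 to 12.5%), 16.5% of the 2238 white-only regions (15.02 to 18.1%) and 24.7% of the 1640 brown-only regions (22.6 to 26.9%). Beige-only regions without a site thus outnumbered brown-only ones by 2.54 to 1, while the AP-1 regions of both classes were equally many, 403 and 405. These shares were not tested, since the regions of a class come from the same 2 libraries.

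Regions shared by a pair of conditions followed the same line. Regions called in the 4 beige and brown libraries alone (1.34% of distal regions) held a site in 20.4% of 2306 cases. Those of white and brown (0.256%) held one in 29.5% of 440, and those of beige and white (1.21%), the inguinal cultures, in 311 of 2073, or 15%. Classes that included brown were above the 18.6% of all distal regions, and the other 3 condition-limited classes were below it. This did not hold without brown 1, where the share was 18.01% in beige and brown and 9.58% in brown only, against 20.05% in beige and white, 19.1% in white only and 18.5% of all distal regions. The beige-and-brown share also ran from 17.4% without white 2 to 27.6% without white 1, and that of white and brown from 24.1% to 30.6% without 1 library. At a common GC content the shares were 10.6%, 15.7% and 25% for beige, white and brown only, and 20.03%, 29.5% and 13.7% for beige with brown, white with brown and beige with white.

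This order leaned on single libraries. Without brown 1, regions found in brown 2 and in no beige or white library held a site in 9.58% of cases, and without brown 2 the value was 19.3%. Without white 1 the white-only share was 10.1%, and without white 2 it was 12.0%. Regions of 1 library had few sites in general, but brown 1 was apart here too: of the regions called in brown 1 alone 18.4% had a site, against 7.77% for brown 2 alone and 8.93 to 11.5% for the other 4. The contrast was clearer among strong peaks. Taking each library against the other 2 conditions at a −log10 q of 10 or over, a site was present in 6.67% of 660 peaks for beige 1 and 7.11% of 1645 for beige 2, in 26.9% of 401 for white 1 and 13.0% of 308 for white 2, and in 37.3% of 451 for brown 1 and 28.6% of 119 for brown 2. At that strength both brown values lay above both white values, by little for brown 2 and white 1, and both white values above both beige values. This comparison was chosen after the values were seen, and its −log10 q limit was not adjusted for read depth.

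Strength went with AP-1 content in opposite directions in beige-only and brown-only regions. In beige-only regions the share with a site was 13.8% at a highest −log10 q under 5, 14.03% from 5 to 10, 6.24% from 10 to 20 and 3.51% at 20 or over. In brown-only regions it was 17.97%, 25.7%, 33.5% and 27.6%, the last over 29 regions. White-only regions went from 12.1% to 18.3% and 18.8% in the first 3 bins. Among beige-only regions at 10 or over, 16.6% (188 of 1132) matched the consensus of CTCF, the insulator protein that anchors chromatin loops, and 5.83% matched AP-1. In white-only regions of that strength the CTCF share was 0.906% (3 of 331) and in brown-only regions none of 286 matched, which allows up to 1.28% by the exact interval. Of regions called in all 6 libraries 6.13% matched CTCF at that strength, as did 6.76% of beige-and-white and 2.99% of beige-and-brown regions. None of 179 white-and-brown regions did.

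**Figure D4:**
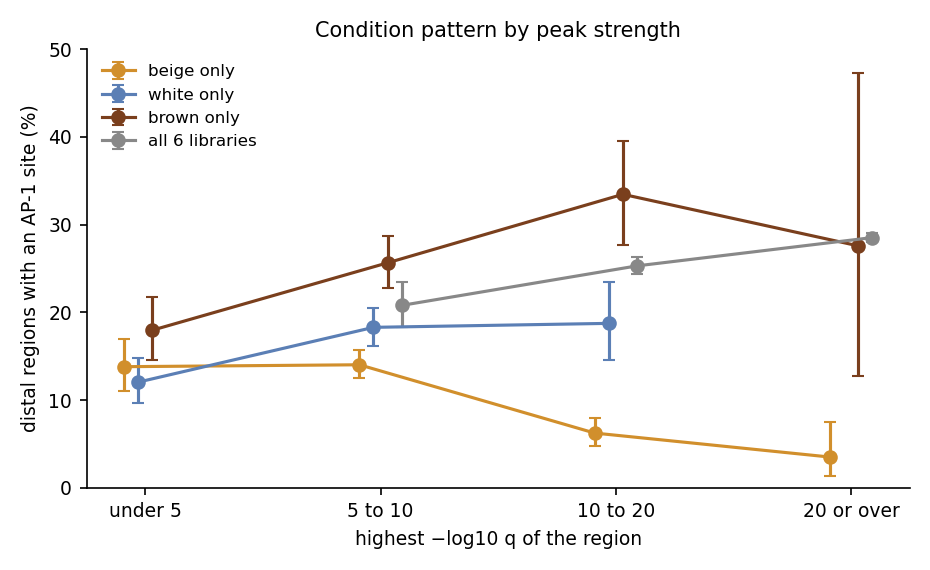
Percentage of distal regions with an AP-1 site by the highest −log10 q of the region, for regions called in both libraries of 1 condition only and for regions called in all 6 libraries. Bars are 95% Clopper-Pearson intervals, and bins under 20 regions are left out. The beige-only share falls to 3.51% in the strongest bin, and the share of regions called in all 6 libraries rises to 28.5%.

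Words were also ranked within each class, if found in at least 20 windows of that class. TGACTCA was first in white-only, brown-only, beige-and-brown and white-and-brown regions, with ratios to the genome of 5.31, 7.93, 6.54 and 9.48. In beige-only regions it ranked 16 with 3.65, behind CG-rich words led by AGGGCGC, with 9.37. In beige-and-white regions it ranked 10, and in regions called in all 6 libraries 7 with 8.92, again behind CG-rich words. The limit left 1223 words in white-and-brown regions and 8190 in regions called in all 6 libraries. Rare words were thus left out more often in small classes, so ranks in classes of unlike size cannot be set against each other.

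Motifs of other factors beside the AP-1 site were compared with windows of the same GC content without a site, once the 7 bases of the site, or as many bases at the same places in the comparison windows, were left out. CTCF departed most, with 0.515% of AP-1 windows and 2.99% of comparison windows (ratio 0.172). The palindromic NFI site was in 9 AP-1 windows (ratio 0.420), and the full cAMP response element TGACGTCA in 0.312% (ratio 0.699). EBF sites (TCCCNNGGGA) were in 1.05% (0.943 to 1.17%) against 1.33% (ratio 0.790), and the DR1 direct repeat of PPAR was in 16 AP-1 windows (ratio 0.842). The C/EBP site TTGCNNAA, bound by the factors that drive adipogenesis, was in 12.0% against 14.3% (ratio 0.842). TEAD (GGAATG) with 0.995, RUNX (TGTGGTT) with 1.04, ETS (CNGGAAGT) with 1.06 and the E-box CAGCTG with 1.03 were near 1. Glucocorticoid response elements (GNACANNNTGTNC) were in 0.721% of AP-1 windows (0.632 to 0.820%) against 0.605% (ratio 1.19), and SRF sites in 1.14% against 0.986% (ratio 1.15). All motifs were searched on both strands.

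The median GC content of the windows was 47.8% against 49.8%, and 44.4% against 44.95% held no soft-masked repeat. Their median distance to the nearest protein-coding start site was 41677 bp against 37204 bp. The share of regions with a site rose from 16.6% at 1 to 5 kb from a start site to 20.1% at 100 to 500 kb. By place, 45.2% of AP-1 regions and 44.8% of the others were intronic, 52.7% and 51.04% intergenic, and 2.09% and 4.14% exonic, and exonic summits had the lowest share of sites with 10.4%. Autosomes held between 17.6% and 19.6%, and the X chromosome 22.8% (21.2 to 24.4%).

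Each region was assigned to the protein-coding gene with the nearest start site, which need not be the gene it acts on. AP-1 regions were nearest to 10353 of the 17178 genes with any distal region, with a median of 2 per gene, and 495 genes with 10 or more held 20.8% of them. The most, 31 of 146 distal regions, were nearest to Pde4d, which encodes a phosphodiesterase that degrades cAMP. The transcription factor genes Runx1 and Klf6 had 29 each, of 91 and 96 distal regions, and the growth regulator Myc had 28 of 141. The ephrin ligand gene Efna5 and the BMP modulator gene Bmper had 28 each, the sialyltransferase gene St3gal1 had 27, and the semaphorin gene Sema6d, the potassium channel gene Kcnma1 and the adhesion receptor gene Adgrl2 had 26 each. Of the Klf6 regions 18 and of the Myc regions 13 were called in all 6 libraries. The AP-1 shares of these 10 genes ran from 19.9% for Myc to 40.9% for St3gal1.

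Among the 2451 genes with at least 20 distal regions the AP-1 share ran from 0 to 48.1%, with a median of 19.0%. Otogl, which encodes an inner ear matrix protein, was highest with 13 of 27. It was followed by the membrane repair gene Myof with 11 of 23, by the leukotriene receptor gene Cysltr2 and by Itgb1, the integrin beta 1 gene, with 10 of 21 each, and by the membrane-shaping gene Pacsin2 with 10 of 22. Chmp6 and the focal adhesion adaptor gene Lims1 had 9 of 20 each, Mtpn 10 of 23, the ETS factor gene Elk3 13 of 30 and the homeobox gene Barx2 15 of 35. With so few regions the intervals were wide, from 28.7 to 68.1% for Otogl. That interval takes no account of Otogl having been picked as the highest of 2451 genes. At the other end Cox7c, a gene of the respiratory chain, had none of 27 and Ppara, the gene of a nuclear receptor for fatty acids, none of 26. Cox7c and Ppara were singled out after their values were seen. Other genes had none too, among them Cpsf6, Spink13 and Ythdf3, with 24 distal regions each. Whether the highest and lowest shares go beyond counting error over so many genes was not tested.

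Distal regions nearest to 14 genes of AP-1 subunits and partners held a site in 45 of 185 cases, or 24.3% (18.3 to 31.2%), an interval that includes the 18.6% of all distal regions, and 11 of 14 genes had at least 1. Over all genes with a distal region, 10353 of 17178 had at least 1. The median number of distal regions per gene was 10 in this list and 5 over all these genes. Jun had 12 of 42 and Fosl2, which encodes Fra-2, had 9 of 40. Jdp2 and Atf3, which encode dimer partners, had 5 each, of 16 and 13. Junb had none of 2 and Jund none of 4, and Mafg had no distal region. Textbook AP-1 targets held a site in 51 of 239, or 21.3% (16.3 to 27.1%), which again includes 18.6%, with 9 of 30 for the hyaluronan receptor gene Cd44, 7 of 28 for the cytokine gene Lif and 6 of 31 for the angiogenic factor gene Vegfa. Plau had none of 14, Mmp13 none of 5, and Tgfb1 and Mt2 none of 2 each, and Mmp3 had no distal region.

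Matrix and contractile genes had the highest share of the 7 lists, with a site in 136 of 536 distal regions or 25.4% (21.7 to 29.3%). Of its 20 genes 18 had at least 1, against 10353 of 17178 over all genes with a distal region. The exceptions were Tagln, with 1 distal region, and Loxl2, with no distal region. The list had a median of 25.5 distal regions per gene, against 5 over all these genes, so its genes had more regions in which a site could fall. The matricellular genes Thbs1 and Tnc had 18 of 68 and 16 of 63, the fibronectin gene Fn1 had 14 of 49, and the collagen genes Col3a1 and Col5a1 had 13 each, of 41 and 46. Of the AP-1 regions of this list 50% were called in all 6 libraries, against 30.5% of its regions without a site and 38.6% of all AP-1 regions. Per library between 90 and 111 of the 136 were called, with the beige libraries at both ends, and between 179 and 253 of the 400 without a site.

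Thermogenic genes had the lowest share, with 54 of 396 distal regions or 13.6% (10.4 to 17.4%). At least 1 was held by 11 of 18 genes, close to the 10353 of 17178 over all genes with a distal region. Ebf2, a factor of the brown lineage, had 13 of 58 and Ppargc1a, the coactivator of mitochondrial genes, had 11 of 53. Zfp516 had 9 of 86 and Esrrg 8 of 56. Ppara had none of 26, Cidea none of 9, Elovl3 none of 7, Slc27a2 none of 3, and Cox7a1 and Fgf21 none of 1 each. Cpt1b had no distal region. Ucp1, the uncoupling protein gene, was looked up after its values were seen. It had a site in 1 of 14 distal regions, at chr8:83309832-83310264, 19730 bp from its start, called in all 6 libraries and ranked from percentile 70.9 to 92.3. Of the Ppargc1a regions 2 were called in the 4 beige and brown libraries alone and 1 in the brown libraries alone. Over the whole list 4 of the 54 AP-1 regions were called in beige and brown alone and 2 in brown alone. Of all AP-1 regions 1.47% and 1.26% had these patterns, so a list of this size holds too few for a reading.

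Adipocyte genes held a site in 32 of 221 distal regions or 14.5% (10.1 to 19.8%), an interval that includes the 18.6% of all distal regions. At least 1 was held by 12 of 20 genes, close to the 10353 of 17178 over all genes with a distal region. Cd36, the fatty acid transporter gene, had 6 of 35, Pparg, the master regulator of adipogenesis, had 5 of 19, and the lipase gene Lpl and the leptin gene Lep had 4 each, of 23 and 25. Fabp4 had none of 12, Fasn none of 7, Plin1 and Lipe none of 5 each, Agpat2 and Adrb3 none of 4 each and Retn none of 3. Slc2a4 had no distal region. The strongest of the Pparg regions, at chr6:115462707-115463338 in an exon 41092 bp from the start site, was called in all 6 libraries at percentile 91.2 to 99.1.

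Progenitor genes held a site in 66 of 352 distal regions (18.8%), led by the proteoglycan gene Dcn with 9 of 37 and the peptidase gene Dpp4 with 8 of 32, followed by Cd34 and Thy1 with 7 each. Icam1 had none of 1 and Clec11a none of 2. Glucocorticoid response genes held one in 58 of 295 (19.7%), with 12 of 35 for the kinase gene Sgk1, 11 of 34 for Klf9, 10 of 57 for the receptor gene Nr3c1 and 5 of 20 for the phosphatase gene Dusp1. Lcn2 had no distal region. In all 7 lists regions with a site were called in all 6 libraries more often than regions without, from 31.2% against 28.0% for adipocyte genes to 56.9% against 32.9% for glucocorticoid response genes.

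**Figure D5:**
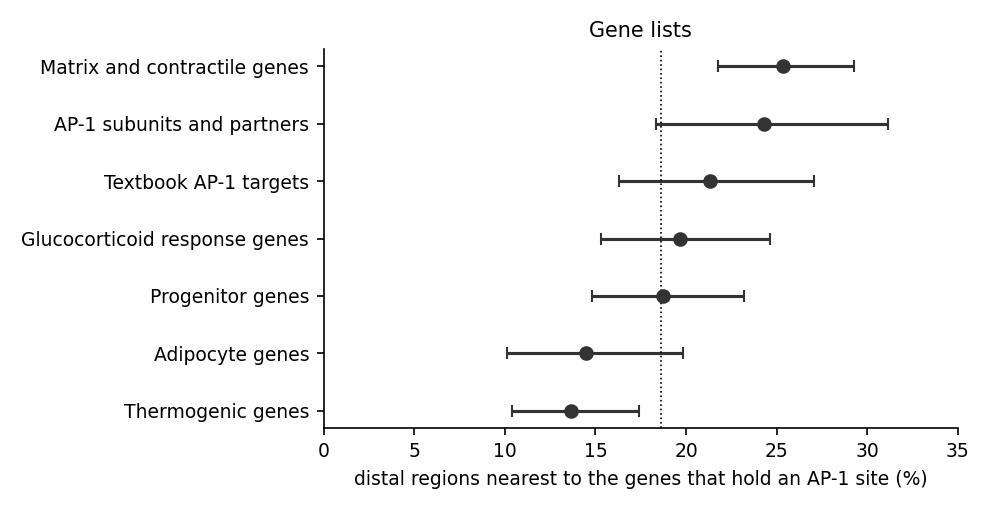
Percentage of the distal regions nearest to the genes of each list that hold an AP-1 site (points), with 95% Clopper-Pearson intervals. The dotted line is the 18.6% of all distal regions. Matrix and contractile genes are highest with 25.4% and thermogenic genes lowest with 13.6%.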

How the data were processed

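Chromatin accessibility was measured by ATAC-seq in 6 adipocyte libraries, 2 per condition. The authors aligned reads to mm10 with BWA and called peaks in each library alone with MACS2, and deposited 1 narrowPeak list per library. For each summit the deposited files give the fold enrichment over the local background, a ratio, and the −log10 q value, with all peaks at a q below 0.05. Read depth is not in these files, so values were compared across libraries only as ranks within a list. No column of another series was used.

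Each interval was represented by its summit with the highest −log10 q. Intervals that overlapped or touched across the 6 lists were merged, and each merged region kept its strongest summit. Distances were measured to the start sites of protein-coding transcripts of the GENCODE M21 basic set. The 201 bp around the summit were read from the GRCm38 reference, the assembly of mm10, and searched for TGACTCA and TGAGTCA. The fold percentile is the rank of a peak's fold enrichment among the distal peaks of its own list. Genes were assigned by the nearest start site. Named in the text are the 10 genes with most AP-1 regions, the 10 with the highest share among genes with at least 20 distal regions, the strongest regions of each pattern of calls, the regions with most sites and, of each list, up to 4 leading genes and those with none. The members and lists were chosen with earlier results of these data known.

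Conditions were compared over libraries with exact two-sided permutation tests in Python 3.11.15 with numpy 2.4.6, pandas 2.3.3 and scipy 1.17.1. The within-library test was added after the values were seen. Shares of regions carry Clopper-Pearson intervals and no test. On simulated data of 4000 regions the search recovered 100% of the planted sites. Alternatives were another q limit, list length, window, distance, set of start sites, summit, repeat limit and overlap, GC bins, the replicate block and leaving out each library. For insulin the labels give 5 µg/ml, while the study's methods state lower amounts.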

Additional observations from a re-analysis of the deposited data

How the results depend on the processing

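The share of distal regions with a site was 18.8% at a q under 0.01, 22.6% at a q under 0.00001, 19.8% with lists shortened to the length of the shortest, 14.2% and 23.6% with windows of 50 and 250 bp to each side and 18.98% with start sites of all transcripts, and 18.5% to 19.5% without 1 library. AP-1 regions were called in all 6 libraries more often than regions without a site under every alternative run. The shares were 39.4% and 29.1% at a q under 0.00001, 39.2% and 25.05% with shortened lists, 39.8% and 23.6% at 50 bp, 42.5% and 26.8% with at most 10% soft-masked bases, 37.5% and 21.8% where a peak had to cover the strongest summit, 27.1% and 15.1% where it had to cover 0.5 of the region, and 40.7% to 42.9% and 24.6% to 27.2% for calls in all 5 that remain without 1 library. AP-1 regions had 35.7% at 250 bp, and regions without a site 23.3% at a q under 0.01, 22.5% beyond 3 kb and 22.4% with all start sites.

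The order beige-only, white-only, brown-only, from the lowest share to the highest, held in 17 of 19 settings, the exceptions being those without white 1 and without brown 1. With windows of 50 bp the shares were 8.72%, 12.02% and 18.6%, and with 250 bp 15.5%, 21.6% and 30.4%. The beige-only share was 10.2% with shortened lists, and at a q under 0.00001 the white-only share was 19.1% and the brown-only share 27.8%. Without 1 library they ran from 10.3% to 13.9% in beige, from 10.1% to 19.1% in white and from 9.58% to 26.1% in brown.

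The difference between white and beige in the share of peaks with a site changed sign with 50-bp windows (-0.20 points) and ran from -1.19 to 1.26 without 1 library. White against the other conditions ran from -2.19 to 0.26, the latter without white 2. The brown minus white difference in rank gain was -0.11 with 50-bp windows and ran from -1.51 without white 2 to 2.61 without white 1. The causes of these changes were not tested. The gain in rank over all libraries ran from 13.7 to 15.1 points, and the difference in width from 38.8 to 40 bp, without 1 library, with an exact permutation p of 0.0625, the smallest that 5 libraries allow.

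Replicate numbers are shared between conditions, but no label says that they mark a common day or litter. With libraries paired by replicate number, the replicate block, the differences kept their values by construction, 2.01 points for brown minus beige. The exact sign-flip permutation p was 0.5, the smallest that 2 pairs allow. Replicate 1 had the higher AP-1 share in each condition. Read depth is not in the lists, so no interval takes it into account. The study's reporting summary gives fewer mapped reads, and a lower mapped share, for both beige libraries than for both white ones. It does not list the brown libraries. What depth and mapping did to the contrasts between conditions was not tested.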

Other observations

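Motifs of other factors varied between the condition-limited classes too. C/EBP sites were in 13.4% of all distal regions, and in 16.4% of beige-only, 14.4% of white-only and 9.82% of brown-only regions. They were in 19.4% of regions called in the beige and white libraries alone, 17.9% of those of beige and brown and 13.0% of those of white and brown. In the single-condition classes TEAD sites ran the other way, with 12.2%, 17.2% and 19.2% in beige-only, white-only and brown-only regions. TEAD sites were in 14.8% of all distal regions. Among AP-1 regions of beige and brown, C/EBP sites were in 10.4%, against 19.8% of regions of that class without an AP-1 site. The gap was narrower over all distal regions, with 12.0% against 13.7%, and in regions called in all 6 libraries, with 13.5% against 16.6%. These shares are of whole windows, with no bases left out and no matching for GC content.

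The longer site that Maf proteins bind, in which TGC stands before an AP-1 site, was present in 7.16% of AP-1 regions. The share was 12.9% (9.79 to 16.6%) in beige-only, 7.57% in white-only and 5.43% in brown-only AP-1 regions.

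Some short words had their highest count directly beside the site. For each word the spacing with the highest count was picked, so this count lies above the median by construction. No test was made, and the bases favoured just outside the site in distal windows were not taken into account. Other words had their highest count at a distance, such as the TEAD word GGAATG with 40 at 7 bp, against a median of 19. Over 45962 flanks of 22981 sites outside repeats, TTTC, the IRF core read away from the site, directly abutted the site 398 times, against a median of 254 over the spacings examined. The word GCAA directly abutted it 264 times, against a median of 188. It is part of a C/EBP site, but on the other strand it reads TTGC before the site. Abutting copies thus include the TGC of the longer Maf site, and the 2 cannot be told apart by this count.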
